A study of Mus musculus with 8 samples.

Results

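The 4 libraries described here come from mouse CD4 T cells of a single antigen specificity that carried an inducible Bach2 vector. Of these, 2 hold follicular helper T (Tfh) cells and 2 hold activated helper cells outside that lineage (non-Tfh cells). They are all the Bach2-vector libraries of a series of 8. The other 4 hold Tfh and non-Tfh cells with an empty vector, 2 libraries each, and enter below as the setting without Bach2. Every cell came from Smarta donors, whose T cells carry a transgenic receptor for a viral glycoprotein peptide, crossed to CreERT2, a Cre recombinase that tamoxifen activates. Per the labels, donor T cells received the vector by retrovirus and were moved into C57BL/6 mice, which were immunized under the skin with mouse serum albumin carrying nitrophenol and the viral peptide GP61-80. Tamoxifen was then injected to switch on the vector, and cells were taken 18 hours later, on day 6, from pooled inguinal lymph nodes. That protocol is given once for all samples, so it does not say separately that hosts of empty-vector cells had tamoxifen too. The hosts kept their own lymphocytes, and the Thy-1.1 gate selected the transferred cells. Tfh cells with the Bach2 vector were sorted as Thy-1.1+ CD44hi CXCR5+ PD-1+ cells. Their non-Tfh counterparts were sorted as Thy-1.1+ CD44hi CXCR5- PD-1- cells, and both empty-vector groups passed the matching gates. Animals' ages, and whether the 2 libraries of a group came from separate animals, are not given in the labels, so p-values measure only the spread between these samples, which may be technical.

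Tfh cells are the helper cells of the B cell follicle. They depend on the repressor Bcl6, follow the chemokine CXCL13 through its receptor CXCR5, and help germinal centre B cells with IL-21, IL-4 and CD40 ligand. The other helper cells of the same response rely on Blimp-1 (Prdm1), T-bet and IL-2 signalling, leave the node and make effector cytokines. Bach2 is a basic leucine zipper repressor that pairs with small Maf proteins and is known to hold back effector genes in lymphocytes, partly at DNA sites that AP-1 factors also bind. The comparison asks which differences between Tfh and non-Tfh cells are present when both carry the Bach2 vector.

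Bach2-vector libraries held 9285912 and 8193485 counts in Tfh cells and 9129806 and 9830284 in non-Tfh cells, and all 8 libraries lay between 7862879 and 9889859. Replicates of a group differed by more than sampling noise, with chi-square values per degree of freedom of 5.98 to 9.36, so none was a copy. On a multidimensional scaling the first axis held 67.4% of the variation and placed the Bach2-vector Tfh libraries at -1.49 and -1.13, and the Bach2-vector non-Tfh libraries at 1.18 and 1.40. The mitochondrial share of counts was 1.26% and 1.08% in Tfh cells, against 0.987% and 0.944% in non-Tfh cells, and its part in the results was not tested. Values are CPM (each count as a share of its library's total, per 1000000 counts), with totals corrected by trimmed mean of M-values (TMM). Bulk libraries cannot tell fewer cells of a type from less RNA per cell.

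The labels were checked against genes that define the cells. The beta-chain segment Trbv13-1 took 99.9% and 99.8% of all counts in beta variable segments in the Bach2-vector Tfh libraries, and 99.9% in each Bach2-vector non-Tfh library. Among alpha variable segments, Trav14d-3-dv8 took 88.8% and 87.0% in Tfh cells, and 89.8% and 87.1% in non-Tfh cells. These segments were singled out after their values were seen, and 1 dominant pair in all 4 libraries is what T cells with 1 transgenic receptor carry. The gate itself fixes Cxcr5, Pdcd1 (PD-1), Cd44 and Thy1, so they are described here without a test, although they stay among the tested genes counted below. Cxcr5 had 648 and 576 CPM in Tfh cells, against 23.5 and 17.4 CPM in non-Tfh cells. Pdcd1 had 613 and 381 CPM in Tfh cells, against 128 and 95.9 CPM in non-Tfh cells. The sorted receptors were thus far apart between the gates, whereas Cd44 had 235 and 209.9 CPM in Tfh cells, against 219 and 233 CPM in non-Tfh cells. Thy1 had 71.7 and 78.03 CPM in Tfh cells, against 88.2 and 91.2 CPM in non-Tfh cells, and counts do not tell the Thy-1.1 form from the host's.

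Markers of other cell types were examined in both gates. Of 6 erythroid markers, 5 had no count in either Bach2-vector group (Hba-a1, Hba-a2, Hbb-bs and Hbb-bt among them), and the NK receptors Ncr1, Klra8 and Klra4 and the stromal genes Col3a1, Pdpn and Ccl21a had none either. The summed B cell list was 842 to 1009 CPM over 11 genes in Tfh cells, against 405 to 522 CPM in non-Tfh cells. Its members Pax5 and Ebf1 had at most 6 pooled counts in either group. Most of the sum came from Ighm, with 819 and 682 CPM in Tfh cells, against 416 and 322 CPM in non-Tfh cells. Of 6 tested members of the list, 2 were higher in Tfh cells past the threshold given below and 0 lower. Over all tested genes 11.6% were higher. The median log2 fold change of the 6 was -0.69. The summed NK list was 90.8 to 101 CPM in Tfh cells and 20.1 to 24.45 CPM in non-Tfh cells, carried by Klrb1c. The plasma cell list summed to 124.5 to 128.5 CPM in Tfh cells and 186 to 206 CPM in non-Tfh cells. Myeloid and dendritic markers summed to 76.7 to 88.5 CPM in Tfh cells and 84.4 to 87.2 CPM in non-Tfh cells, and stromal and endothelial markers, carried by Pecam1, to 249.7 to 281 CPM in Tfh cells and 177 to 206 CPM in non-Tfh cells. For CD8 T cell markers the sums were 17.4 to 19.0 CPM in Tfh cells and 15.4 to 19.7 CPM in non-Tfh cells, and for gamma-delta markers at most 0.217 CPM in Tfh cells and 0.873 CPM in non-Tfh cells. The part of these genes in the results below was not tested.

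With the Bach2 vector, 2796 of 11475 tested genes (24.4%) differed between Tfh and non-Tfh cells at an adjusted p below 0.05 (quasi-likelihood test of edgeR, Benjamini-Hochberg adjustment). Of these, 1335 (11.6% of tested genes) were higher and 1461 (12.7%) lower in Tfh cells. A difference of at least 2-fold was fitted for 435 of the higher and 522 of the lower genes, and one of at least 8-fold for 80 and 123. The median log2 fold change over all tested genes was 0.00067. Libraries of the gates did not overlap for 59.8% of tested genes, so a lack of overlap by itself says little here. These counts moved with single libraries: without replicate 2 of the non-Tfh group 884 genes were called higher, and 1038 lower. Fold changes below are log2 values, Tfh over non-Tfh, ± the standard error of the fit, with 2 libraries in each group.

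Among the genes with the highest fold changes, levels outside the Tfh gate varied. Cebpa, a transcription factor best known in myeloid cells, had 42.8 and 25.6 CPM in Tfh cells, against 0.109 and 0.411 CPM in non-Tfh cells (log2 fold change 6.94 ± 0.56, adjusted p = 2.37e-05). Tox2, an HMG-box factor of the Tfh lineage, had 394 and 311 CPM in Tfh cells, against 13.6 and 10.6 CPM in non-Tfh cells (log2 fold change 4.87 ± 0.29, adjusted p = 3.63e-05). Its levels in both Tfh libraries were many times those of either non-Tfh library. Sostdc1, a secreted antagonist of BMP and Wnt signals, had 203 and 102 CPM in Tfh cells, against 2.29 and 0.925 CPM in non-Tfh cells (log2 fold change 6.57 ± 0.81, adjusted p = 0.00568). Replicate 1 of the Tfh group was well above replicate 2 in Sostdc1, and without either non-Tfh library its adjusted p was 0.0517 to 0.0648. Angptl2, a secreted angiopoietin-like protein, had 573 and 491 CPM in Tfh cells, against 45.2 and 21.3 CPM in non-Tfh cells (log2 fold change 4.01 ± 0.47, adjusted p = 0.00468). Also among the 15 genes with the highest fold changes were Fam43a (6.78), the class I gene H2-Q2 (6.49), the citrullinating enzyme Padi4 (5.83), Sccpdh (4.73), Coro2b (4.60), the protease gene Adamts3 (4.46), the tubulin Tubb2a (4.30), Tigit (3.83) and Gm14085 (3.65). H2-Q2 has near-identical relatives, so its reads are uncertain. Cebpa, Fam43a and Padi4 had under 1 CPM in each non-Tfh library, and Adamts3 and Coro2b had 1 and 3 counts in replicate 2 of that group, so their fold changes rest on few reads there. Without replicate 1 of the non-Tfh group the fold change was 7.05 for Adamts3, 5.93 for Coro2b, 4.64 for Angptl2, 7.34 for Sostdc1, 6.33 for Cebpa, 6.07 for Fam43a and 5.22 for Padi4. Without replicate 2 it was 3.55 for Adamts3, 3.89 for Coro2b, 8.12 for Cebpa and 8.42 for Fam43a, and each of these genes except Sostdc1 was called in all 8 fits that left out a library.

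Genes of several kinds had the lowest fold changes. Il2ra, the alpha chain of the IL-2 receptor (chr2:11642807-11693193, plus strand of GRCm38), had 4.56 and 6.52 CPM in Tfh cells, against 86.2 and 103 CPM in non-Tfh cells (log2 fold change -4.10 ± 0.18, adjusted p = 5.59e-09). Ccr2, a receptor for inflammatory chemokines, had 4.67 and 15.7 CPM in Tfh cells, against 139.9 and 218 CPM in non-Tfh cells (log2 fold change -4.16 ± 0.55, adjusted p = 0.00720). Both Tfh libraries lay below both non-Tfh libraries in Ccr2 but were far apart from each other, and with only the 4 Bach2-vector libraries in the fit its adjusted p was 0.0674. With replicate 1 of the Tfh group left out its fold change was -3.51, and with replicate 2 left out -5.26. Igfbp4, a binding protein for insulin-like growth factors, had 1.84 and 2.05 CPM in Tfh cells, against 30.1 and 51.3 CPM in non-Tfh cells (log2 fold change -4.38 ± 0.37, adjusted p = 8.04e-06). Plac8 had 8.03 and 6.16 CPM in Tfh cells, against 86.99 and 89.4 CPM in non-Tfh cells (log2 fold change -3.63 ± 0.30, adjusted p = 3.38e-05). The remaining genes of the 15 lowest were Ust (-4.49), 1500009L16Rik (-4.01), the lectin receptors Klrk1 (-3.95) and Klrc1 (-3.78), Ly6c2 (-3.94), the histamine receptor Hrh4 (-3.94), AA467197 (-3.93), the granzymes Gzma (-3.83) and Gzmb (-3.64), Ajuba (-3.77) and the integrin chain Itga1 (-3.68). Without replicate 1 of the Tfh group, Itga1 had an adjusted p of 0.0539. Without replicate 2 of that group the fold change was -4.36 for Gzmb, -4.55 for Klrk1 and -4.43 for Ajuba, and without replicate 2 of the non-Tfh group it was -2.89 for Itga1. All 30 genes of these rankings were called in the same direction with the empty vector.

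**Figure D1:**
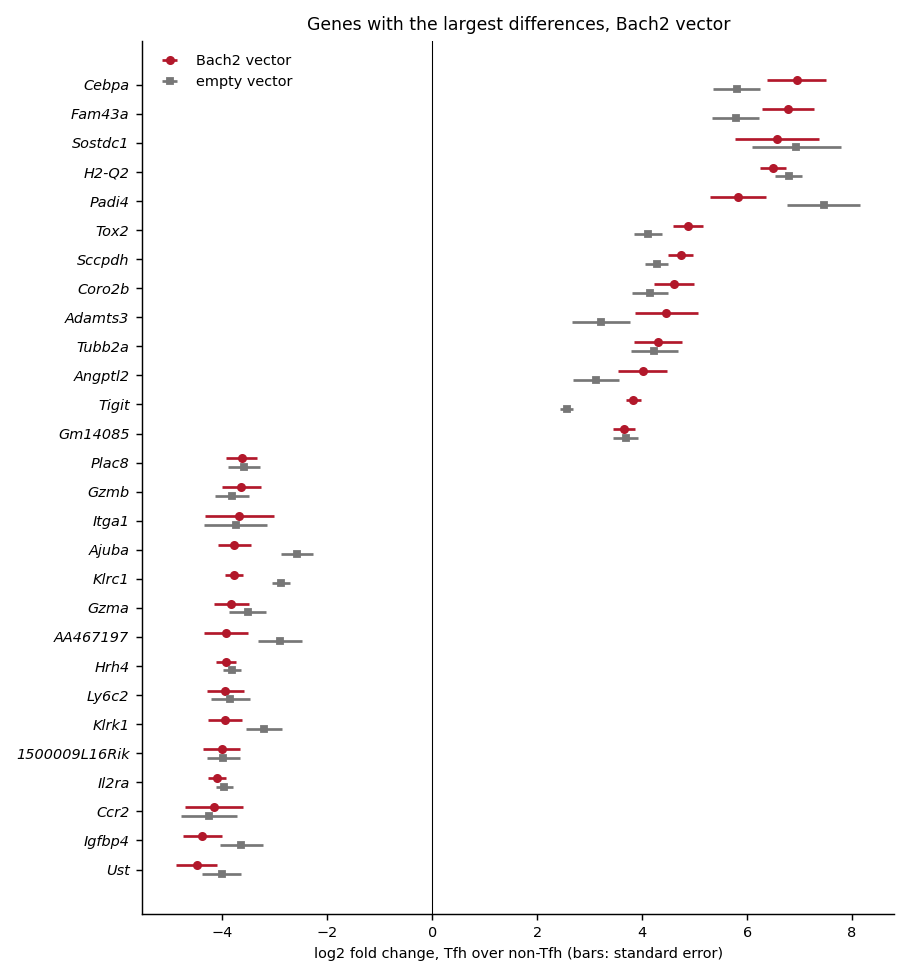
Log2 fold changes of Tfh over non-Tfh cells (x axis) for genes among the 15 highest and the 15 lowest with the Bach2 vector (y axis). Red circles are the Bach2 vector, grey squares the empty vector, and bars the standard error. With the Bach2 vector the higher genes run from 3.65 to 6.94 and the lower genes from -4.49 to -3.63, and the empty-vector values lie on the same side of 0 for every gene shown.

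Transcription factors of the Tfh lineage were largely higher in Tfh cells. Of 19 tested, 12 were higher and 2 lower, with a median log2 fold change of 0.83. Bcl6, the repressor on which the lineage depends (chr16:23965052-23988852, minus strand), had 119.9 and 102 CPM in Tfh cells, against 16.4 and 13.98 CPM in non-Tfh cells (log2 fold change 2.87 ± 0.14, adjusted p = 2.10e-08). Every Tfh library lay above every non-Tfh library for Bcl6. Tcf7, which encodes TCF-1 and acts upstream of Bcl6, had 3211 and 2952 CPM in Tfh cells, against 1483 and 1556 CPM in non-Tfh cells (log2 fold change 1.02 ± 0.09, adjusted p = 2.84e-06). Nfatc1, a calcium-regulated factor of activated T cells, had 1689 and 1595 CPM in Tfh cells, against 596 and 665 CPM in non-Tfh cells (log2 fold change 1.38 ± 0.09, adjusted p = 1.24e-07), and Pou2af1, a coactivator that B cells also use, had 92.7 and 80.9 CPM in Tfh cells, against 16.3 and 10.7 CPM in non-Tfh cells (log2 fold change 2.69 ± 0.18, adjusted p = 3.50e-07). Lef1, a relative of TCF-1, was higher by 0.83, Maf by 0.91 and Id3, an inhibitor of E protein factors, by 0.52. Ascl2, which can start Cxcr5 expression, had 46 pooled counts in Tfh cells and 1 in non-Tfh cells, a ratio of 49.9 with an exact 95% counting interval of 8.52 to 2010.0. Counting intervals cover counting error only. Rbpj, the nuclear partner of Notch, had 61.7 and 67.9 CPM in Tfh cells, against 106 and 124 CPM in non-Tfh cells (log2 fold change -0.83 ± 0.11, adjusted p = 8.06e-05), and Irf4, a factor induced through the T cell receptor, had 39.9 and 58.6 CPM in Tfh cells, against 91.5 and 93.2 CPM in non-Tfh cells (log2 fold change -0.91 ± 0.15, adjusted p = 4.94e-04). Both were lower in Tfh cells. Batf, Stat3, Egr3, Notch1 and Notch2 did not pass the threshold, and Batf had 133 and 141 CPM in Tfh cells, against 136 and 134 CPM in non-Tfh cells (adjusted p = 0.911). Notch1 passed without replicate 1 of the non-Tfh group (adjusted p = 0.0457) and Notch2 without replicate 2 of the Tfh group (adjusted p = 0.00296), and both passed with no filter on low counts.

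**Figure D2:**
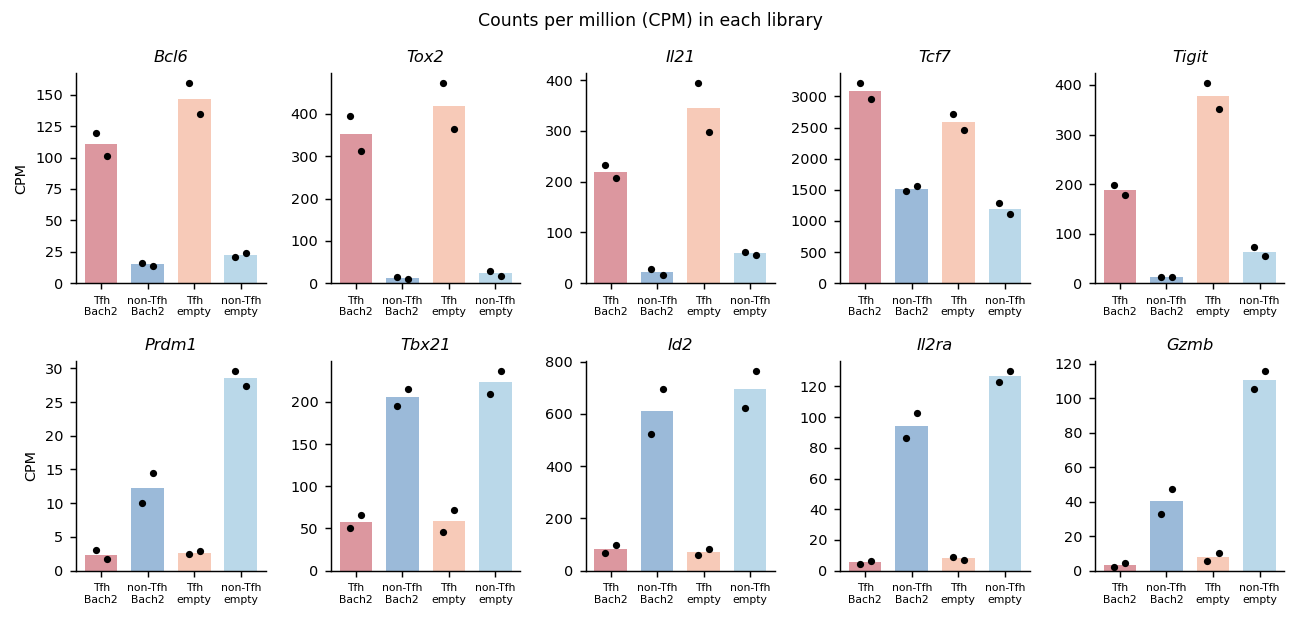
CPM (y axis, from 0) of 10 genes in Tfh and non-Tfh cells with the Bach2 vector and with the empty vector (x axis). Points are libraries and bars the mean of 2. Bcl6, Tox2, Il21, Tcf7 and Tigit are higher in the Tfh libraries of each vector, and Prdm1, Tbx21, Id2, Il2ra and Gzmb are lower.

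Genes through which Tfh cells help B cells were split. Of 13 tested, 6 were higher and 2 lower, with a median of 0.58. Il21, the cytokine that drives germinal centre B cells, had 233 and 207 CPM in Tfh cells, against 28.8 and 16.6 CPM in non-Tfh cells (log2 fold change 3.28 ± 0.25, adjusted p = 1.15e-04). Il4 was low even in Tfh cells, with 11.6 and 4.47 CPM in Tfh cells, against 0.109 and 0.103 CPM in non-Tfh cells. Its 144 pooled counts in Tfh cells against 2 in non-Tfh cells gave a ratio of 78.1 with an exact 95% counting interval of 21.2 to 651. Tnfsf8 (CD30 ligand) had 663 and 639 CPM in Tfh cells, against 209 and 189.9 CPM in non-Tfh cells (log2 fold change 1.71 ± 0.10, adjusted p = 7.88e-08). Sh2d1a, the adaptor SAP that Tfh cells need for lasting contact with B cells, had 276 and 234 CPM in Tfh cells, against 119.8 and 111 CPM in non-Tfh cells (log2 fold change 1.15 ± 0.10, adjusted p = 1.54e-06), and its receptor Slamf6 had 1210.0 and 1196 CPM in Tfh cells, against 566 and 494 CPM in non-Tfh cells (log2 fold change 1.18 ± 0.08, adjusted p = 3.45e-07). Cd40lg, the ligand of CD40, had 182 and 145 CPM in Tfh cells, against 141 and 127 CPM in non-Tfh cells (adjusted p = 0.0697), and Icos, a costimulator used to sort Tfh cells elsewhere, had 542 and 586 CPM in Tfh cells, against 693 and 641 CPM in non-Tfh cells (adjusted p = 0.110). Neither passed the threshold, although without replicate 2 of the Tfh group Cd40lg had an adjusted p of 0.00965, and without either empty-vector Tfh library Icos passed too. With no filter on low counts both passed. Slamf7 (-2.02) and Tnfsf4, the OX40 ligand (-2.28), were lower in Tfh cells. Il10 did not pass the filter on low counts.

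Among 24 inhibitory and costimulatory receptors, 11 were higher and 8 lower in Tfh cells. Tigit, an inhibitory receptor for nectin-type ligands (chr16:43648867-43664146, minus strand), had 198 and 179 CPM in Tfh cells, against 12.9 and 13.6 CPM in non-Tfh cells (log2 fold change 3.83 ± 0.14, adjusted p = 4.26e-09), the lowest adjusted p among the core genes. Lag3, which binds MHC class II, had 105 and 109 CPM in Tfh cells, against 28.1 and 32.1 CPM in non-Tfh cells (log2 fold change 1.83 ± 0.13, adjusted p = 4.11e-07). Cd27 (1.23) and Cd28 (0.72), both costimulators, were higher as well. Cd226, which shares ligands with Tigit and costimulates, had 15.1 and 17.8 CPM in Tfh cells, against 88.1 and 92.2 CPM in non-Tfh cells (log2 fold change -2.46 ± 0.13, adjusted p = 3.86e-08). Tigit and Cd226 thus stood on opposite sides. Havcr2 (TIM-3) had 1.41 and 3.74 CPM in Tfh cells, against 12.99 and 17.7 CPM in non-Tfh cells (log2 fold change -2.59 ± 0.31, adjusted p = 4.89e-05; -3.43 without replicate 2 of the Tfh group), and Cd48 (-0.96) and Cd96 (-0.72) were lower too. The median of the list was 0.22.

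Receptors that place T cells in tissues were mostly lower in Tfh cells. Of 19 tested, 12 were lower and 3 higher, with a median of -1.15. Cxcr6, a receptor of effector and tissue T cells, had 41.6 and 53.1 CPM in Tfh cells, against 370.5 and 516 CPM in non-Tfh cells (log2 fold change -3.23 ± 0.18, adjusted p = 3.12e-06). Gpr15, a gut homing receptor, had 6.73 and 4.71 CPM in Tfh cells, against 32.9 and 25.2 CPM in non-Tfh cells (log2 fold change -2.33 ± 0.20, adjusted p = 2.05e-06). Selplg, which encodes PSGL-1, had 572 and 651 CPM in Tfh cells, against 1322 and 1382 CPM in non-Tfh cells (log2 fold change -1.15 ± 0.10, adjusted p = 3.68e-06), and Ccr7, the receptor for T zone chemokines, had 198 and 289 CPM in Tfh cells, against 631 and 639 CPM in non-Tfh cells (log2 fold change -1.39 ± 0.21, adjusted p = 0.00363). Cxcr4, which holds cells in the germinal centre dark zone, had 32.4 and 28.8 CPM in Tfh cells, against 5.67 and 7.19 CPM in non-Tfh cells (log2 fold change 2.25 ± 0.22, adjusted p = 5.88e-06). S1pr2, which confines cells to the follicle, had 68.03 and 49.4 CPM in Tfh cells, against 27.6 and 26.4 CPM in non-Tfh cells (log2 fold change 1.12 ± 0.20, adjusted p = 0.00212), and Gpr183, a receptor for oxysterols, was higher by 0.85. S1pr1, the receptor used to leave the node, had 682 and 925 CPM in Tfh cells, against 685 and 829.8 CPM in non-Tfh cells (adjusted p = 0.773), with overlapping groups. Its activator Klf2 had 362 and 443 CPM in Tfh cells, against 431 and 601 CPM in non-Tfh cells (adjusted p = 0.451).

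Integrin chains moved in the same direction as most homing receptors, with 10 of 16 lower, 2 higher and a median of -0.87. Itgae (CD103) had 2.82 and 1.93 CPM in Tfh cells, against 12.3 and 13.5 CPM in non-Tfh cells (log2 fold change -2.42 ± 0.27, adjusted p = 2.15e-05) and Itga2 had 0.760 and 2.42 CPM in Tfh cells, against 12.6 and 13.9 CPM in non-Tfh cells (log2 fold change -3.08 ± 0.37, adjusted p = 4.39e-05). Itgam (-3.62) and Itgax (-3.89) were lower from low levels, and both are also myeloid markers. Itgal, a chain of LFA-1, had 1264 and 1233 CPM in Tfh cells, against 921 and 1020.0 CPM in non-Tfh cells (log2 fold change 0.36 ± 0.11, adjusted p = 0.0227). Itgb8, which helps activate TGF-beta, had 5.32 and 2.17 CPM in Tfh cells, against 0.546 and 0 CPM in non-Tfh cells (log2 fold change 3.76 ± 0.81, adjusted p = 0.00466). Without replicate 1 of the Tfh group neither Itgal nor Itgb8 was called, and Itgal was lost also without replicate 2 of the Tfh group or replicate 1 of the non-Tfh group. The Itgb8 fold change was 8.10 without replicate 1 and 2.76 without replicate 2 of the non-Tfh group. Without replicate 2 of the Tfh group it was -4.09 for Itga2, -4.25 for Itgam and -4.88 for Itgax. The beta chain Itgb2 had 1097 and 1113 CPM in Tfh cells, against 1128 and 1183 CPM in non-Tfh cells (adjusted p = 0.580).

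Effector transcription factors ran against the Tfh factors, with 8 of 16 lower, 3 higher and a median of -0.88. Prdm1 (Blimp-1), which opposes Bcl6, had 3.04 and 1.69 CPM in Tfh cells, against 10.04 and 14.5 CPM in non-Tfh cells (log2 fold change -2.35 ± 0.29, adjusted p = 4.98e-05). Id2, an E protein inhibitor of effector cells, had 65.97 and 98.7 CPM in Tfh cells, against 524 and 695 CPM in non-Tfh cells (log2 fold change -2.89 ± 0.28, adjusted p = 9.50e-04), and Tbx21 (T-bet) had 50.4 and 65.8 CPM in Tfh cells, against 196 and 216 CPM in non-Tfh cells (log2 fold change -1.83 ± 0.20, adjusted p = 2.91e-04). Tfh libraries lay below non-Tfh libraries in each. Bhlhe40 (-2.56), Hopx (-2.18), Runx2 (-2.08) and Runx3 (-1.38) were lower as well. Ikzf2 (Helios), an Ikaros family factor, had 100.5 and 70.8 CPM in Tfh cells, against 14.9 and 15.1 CPM in non-Tfh cells (log2 fold change 2.51 ± 0.16, adjusted p = 1.64e-07), Ikzf3 (Aiolos) had 279 and 209.9 CPM in Tfh cells, against 70.4 and 74.3 CPM in non-Tfh cells (log2 fold change 1.76 ± 0.15, adjusted p = 2.15e-05), and Runx1 was higher by 0.79. Eomes, the relative of T-bet, had 6.51 and 5.07 CPM in Tfh cells, against 6.88 and 3.39 CPM in non-Tfh cells (adjusted p = 0.846).

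Effector molecules were lower in Tfh cells almost throughout, with 15 of 18 called lower, none higher and a median of -2.54. Fasl, Gzmk and Ccl3 did not pass the threshold. Ifng, the signature cytokine of Th1 cells, had 7.60 and 13.5 CPM in Tfh cells, against 32.3 and 35.5 CPM in non-Tfh cells (log2 fold change -1.69 ± 0.23, adjusted p = 2.08e-04). Prf1 (perforin) had 1.74 and 0.846 CPM in Tfh cells, against 8.40 and 11.7 CPM in non-Tfh cells (log2 fold change -2.93 ± 0.35, adjusted p = 3.82e-05; -3.55 without replicate 1 of the Tfh group) and the chemokine Ccl5 had 1.41 and 0.725 CPM in Tfh cells, against 10.5 and 11.7 CPM in non-Tfh cells (log2 fold change -3.34 ± 0.36, adjusted p = 1.24e-05). Serpinb9 (-1.28) and Serpinb6b (-1.20), inhibitors of granule proteases, were lower too. Gzmb, the granzyme of cytotoxic granules (chr14:56258838-56262260, minus strand), had 1.95 and 4.59 CPM in Tfh cells, against 33.1 and 47.5 CPM in non-Tfh cells (log2 fold change -3.64 ± 0.37, adjusted p = 1.96e-04). Reads of granzymes, of Ly6c1 and Ly6c2, and of Ccl3 and Ccl4 can be split between close copies, since the handling of such reads is not given in the sources used here.

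The AP-1 core site TGAGTCA, which Bach2 with small Maf proteins can also bind, was looked for on both strands in RefSeq promoters of GRCm38.p6 (250 bases before to 50 after each start). It stood in 5.39% of 1001 protein-coding genes higher in Tfh cells, 4.92% of 1138 lower genes and 3.79% of 6333 tested genes that were not called. A gene counted here if any of its promoters held the core. Counted per promoter, tested gene or not, the share was 5.20% of all 32851 in the table, so it is not in the same unit. Of the 30 genes in those rankings 29 were looked up and 25 had a promoter in the table. Gzmb, Padi4 and AA467197 held the core in the 100 bases before a RefSeq start. The Gzmb stretch is shown because it lies outside all annotated genes and belongs to a gene whose level differed widely between the gates. It is chr14:56262335-56262434, minus strand, 5′ to 3′, with the core in capitals:
Gzmb: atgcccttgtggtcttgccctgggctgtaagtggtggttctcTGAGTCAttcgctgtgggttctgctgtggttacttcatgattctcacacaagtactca
A match is a description of the letters and says nothing of binding in these cells.

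The IL-2 axis and receptors for type 1 cytokines were divided, with 10 of 24 lower, 6 higher and a median of -0.05. Besides Il2ra, Cish, a feedback inhibitor induced by STAT5, had 2.50 and 4.71 CPM in Tfh cells, against 24.8 and 34.9 CPM in non-Tfh cells (log2 fold change -3.06 ± 0.26, adjusted p = 2.04e-06). Il18rap, a chain of the IL-18 receptor, had 16.6 and 25.2 CPM in Tfh cells, against 151 and 179 CPM in non-Tfh cells (log2 fold change -2.98 ± 0.20, adjusted p = 6.65e-06), and Il2rb, the shared beta chain, had 748 and 835 CPM in Tfh cells, against 1309 and 1608 CPM in non-Tfh cells (log2 fold change -0.88 ± 0.10, adjusted p = 1.77e-05). Receptors of the IL-6 pathway lay on the other side. Il6st, which encodes gp130, had 449 and 547 CPM in Tfh cells, against 246 and 246 CPM in non-Tfh cells (log2 fold change 1.02 ± 0.12, adjusted p = 7.37e-05), and Il6ra had 138 and 122 CPM in Tfh cells, against 82.2 and 82.3 CPM in non-Tfh cells (log2 fold change 0.66 ± 0.11, adjusted p = 5.09e-04). Socs1 (0.67) and Stat5b (0.40) were higher too. Il2 itself had 1.95 and 3.14 CPM in Tfh cells, against 3.17 and 1.34 CPM in non-Tfh cells (adjusted p = 0.845).

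Each of the 9 tested NK-type receptors, mostly lectins, passed the threshold, 7 lower and 2 higher, with a median of -3.78. Over all tested genes 24.4% passed. Klrg1 and Klrc2 were nearly absent from the Bach2-vector Tfh libraries, which did not carry them past the filter on low counts. The share is thus a description. Klrc1 (NKG2A) had 5.53 and 6.16 CPM in Tfh cells, against 70.6 and 89.8 CPM in non-Tfh cells (log2 fold change -3.78 ± 0.18, adjusted p = 1.20e-08) and its partner Klrd1 (CD94) had 4.88 and 5.44 CPM in Tfh cells, against 48.4 and 62.4 CPM in non-Tfh cells (log2 fold change -3.42 ± 0.19, adjusted p = 3.89e-08). Klrk1 (NKG2D) had 4.12 and 8.58 CPM in Tfh cells, against 88.5 and 106 CPM in non-Tfh cells (log2 fold change -3.95 ± 0.33, adjusted p = 6.44e-05). Klrg1 had no count in either Tfh library and 84 pooled counts in non-Tfh cells, so it was at least 25.8-fold lower in Tfh cells against a floor of 3 counts over the group. Klrc2 had 1 pooled count in Tfh cells and 38 in non-Tfh cells, a ratio of 35.0 with a counting interval of 5.92 to 1420.0. Klrb1c (93.9 and 85.3 CPM in Tfh cells, against 17.5 and 16.6 CPM in non-Tfh cells) and Cd160 (159 and 105 CPM in Tfh cells, against 24.01 and 18.7 CPM in non-Tfh cells) ran the other way, at log2 fold changes of 2.39 and 2.63. Cd160 is on this list but is not a lectin. Klri1 and Klri2 did not pass the filter on low counts, and reads may be split between close relatives among the lectin receptors.

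Bach2 counts themselves did not separate the gates. Bach2 had 121 and 135 CPM in Tfh cells, against 130.5 and 158 CPM in non-Tfh cells (log2 fold change -0.17 ± 0.12, adjusted p = 0.347). With the empty vector Bach2 was lower in Tfh cells, at 11.2 and 14.1 CPM in Tfh cells, against 24.9 and 28.9 CPM in non-Tfh cells (log2 fold change -1.10 ± 0.16, adjusted p = 1.68e-04). The difference between these fold changes had an unadjusted p of 0.000391 and an adjusted p of 0.408. Reads of the vector's insert and of the cell's own gene cannot be told apart in these counts.

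Of 22 tested genes reported elsewhere as repressed by Bach2 in T cells, 15 were lower and 3 higher in Tfh cells, with a median of -2.04. With the empty vector 16 were lower and 3 higher, with a median of -2.22, so the pattern was present without the Bach2 vector too. Apart from genes given above, S100a4 had 39.5 and 38.2 CPM in Tfh cells, against 129 and 151 CPM in non-Tfh cells (log2 fold change -1.85 ± 0.10, adjusted p = 4.91e-08) and Ahr was lower by a log2 fold change of -1.14. The higher members were Tigit, Tnfsf8 and Tnfrsf9 (4-1BB), the last with 60.98 and 52.3 CPM in Tfh cells, against 33.5 and 32.3 CPM in non-Tfh cells (log2 fold change 0.79 ± 0.14, adjusted p = 7.15e-04). Many of these genes are also effector genes held in the lists above, so the counts are not independent. Among 18 AP-1, Maf and related factors, 5 were higher and 3 lower, with a median of 0.10. Mafg, a small Maf that pairs with Bach2, had 46.98 and 37.3 CPM in Tfh cells, against 12.99 and 14.5 CPM in non-Tfh cells (log2 fold change 1.62 ± 0.16, adjusted p = 5.13e-06), and Nfe2l2 (NRF2) was higher by 0.61, Irf8 by 0.77. Batf3 had 0.542 and 0.483 CPM in Tfh cells, against 6.00 and 3.70 CPM in non-Tfh cells (log2 fold change -3.20 ± 0.59, adjusted p = 0.00121), and Fosl2 was lower by a log2 fold change of -1.30, a call that 4 of the 8 fits without 1 library lost, with an adjusted p up to 0.433, as did DESeq2 (adjusted p = 0.0701). Jun, Junb, Jund, Fos and Fosb did not pass; Fos had 105 and 37.4 CPM in Tfh cells, against 45.8 and 10.8 CPM in non-Tfh cells (adjusted p = 0.537), and replicate 1 exceeded replicate 2 in both gates. With the replicate number as a block Fos passed (adjusted p = 5.54e-06).

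Genes of the T cell receptor complex and its first signalling steps were higher in Tfh cells in 12 of 28 cases and lower in 1, with a median of 0.21. Fyn, a receptor-proximal kinase, had 1455 and 1399 CPM in Tfh cells, against 758 and 794 CPM in non-Tfh cells (log2 fold change 0.88 ± 0.08, adjusted p = 2.05e-06). Ptpn22 (0.67), Malt1 (1.23) and the zeta chain Cd247 (0.61) were higher, while the phosphatase Ptpn6 (SHP-1) was lower by a log2 fold change of -0.41. Of 27 early genes that the receptor induces, 3 were higher and 9 lower. That is 44.4% called, against 24.4% over all tested genes, but the share called higher was near the 11.6% of all tested genes. Egr2 had 168 and 134 CPM in Tfh cells, against 68.5 and 52.6 CPM in non-Tfh cells (log2 fold change 1.32 ± 0.16, adjusted p = 2.08e-04) and Nr4a1, a reporter of receptor signalling, had 134 and 97.8 CPM in Tfh cells, against 53.7 and 50.05 CPM in non-Tfh cells (log2 fold change 1.16 ± 0.23, adjusted p = 0.00749). Without replicate 1 or replicate 2 of the non-Tfh group Nr4a1 was not called, at an adjusted p of 0.0718 and 0.0971. Egr1 was higher by 1.11. Myc, a transcription factor of growing lymphocytes, had 19.2 and 29.4 CPM in Tfh cells, against 86.4 and 103 CPM in non-Tfh cells (log2 fold change -1.97 ± 0.17, adjusted p = 4.61e-06), and Nfkbid (-0.76), Irf4 and Dusp5 (-0.73) were lower. Leaving out 1 library gave 2 to 5 higher early genes.

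With the Bach2 vector many cell cycle genes were lower in Tfh cells. Of 47 DNA replication genes, 33 were lower and 2 higher, with a median log2 fold change of -0.58 and 43 of 47 below 0. Uhrf1, which guides maintenance methylation after replication (chr17:56303321-56323486, plus strand), had 45.7 and 47.4 CPM in Tfh cells, against 108 and 103 CPM in non-Tfh cells (log2 fold change -1.18 ± 0.10, adjusted p = 2.43e-06). Mcm5, a subunit of the replicative helicase, had 151 and 137 CPM in Tfh cells, against 271 and 248 CPM in non-Tfh cells (log2 fold change -0.85 ± 0.09, adjusted p = 8.67e-06), and Cdc6, which loads that helicase, had 13.7 and 17.9 CPM in Tfh cells, against 43.2 and 38.02 CPM in non-Tfh cells (log2 fold change -1.37 ± 0.15, adjusted p = 2.15e-05). The groups did not overlap for any of these. Mcm3 was lower by a log2 fold change of -0.74. Rpa1, a single-strand binding protein (0.88), and Mcm6 (0.29) were higher, with 1 higher call left without replicate 1 of the Tfh group or replicate 2 of the non-Tfh group. Of 60 mitosis genes, 31 were lower and 2 higher, with a median of -0.46 and 56 of 60 below 0. Ccna2 (cyclin A2) had 85.6 and 93.5 CPM in Tfh cells, against 174 and 171 CPM in non-Tfh cells (log2 fold change -0.94 ± 0.11, adjusted p = 1.88e-05). Birc5 (survivin) had 57.4 and 57.9 CPM in Tfh cells, against 116 and 112 CPM in non-Tfh cells (log2 fold change -0.98 ± 0.12, adjusted p = 3.60e-05), and Mybl2, a factor of dividing cells, had 17.8 and 10.8 CPM in Tfh cells, against 40.4 and 36.5 CPM in non-Tfh cells (log2 fold change -1.42 ± 0.22, adjusted p = 4.37e-04). Racgap1, needed for cytokinesis, was lower by a log2 fold change of -0.72. Kif15 (0.43) and Smc4 (0.30) were higher, and 6 of the 8 fits without 1 library lost the Smc4 call. Few of these genes passed a test against a set fold. Against a 1.5-fold change 8 replication and 3 mitosis genes were called lower, and against a 2-fold change none, although some fitted values exceeded 2-fold. Without replicate 1 of the non-Tfh group 19 mitosis genes were called lower, and without replicate 1 of the Tfh group or replicate 2 of the non-Tfh group none was called higher.

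The same lists gave fewer calls with the empty vector. There 6 of 47 replication genes were lower and 2 higher (median -0.17), and 5 of 60 mitosis genes were lower and 2 higher (median -0.05). With the empty vector Uhrf1 had 72.1 and 82.9 CPM in Tfh cells, against 109.8 and 109 CPM in non-Tfh cells (log2 fold change -0.50 ± 0.10, adjusted p = 0.00247), and Ccna2 had 138 and 173 CPM in Tfh cells, against 189.7 and 195 CPM in non-Tfh cells (log2 fold change -0.31 ± 0.10, adjusted p = 0.0434). In the 8 genes plotted by library, both Bach2-vector Tfh libraries lay below all other libraries, and both non-Tfh groups had higher mean CPM than either Tfh group. These 8 were named by adjusted p for being lower in Tfh cells with the Bach2 vector. Low values in those libraries were thus selected for, and their pattern is no test of a difference between vectors. The difference between the fold changes was tested gene by gene. No gene of either list passed after adjustment, with smallest adjusted p values of 0.408 for replication and 0.547 for mitosis. At an unadjusted p below 0.05, 27 of 47 replication genes and 28 of 60 mitosis genes had the more negative fold change with the Bach2 vector and none the more positive one. Over all tested genes, 2.51% met that limit with a more negative and 2.19% with a more positive fold change. Other lists also moved, in both directions. The more negative fold change was met by 4 of 28 genes of cholesterol and fatty acid synthesis, and the more positive one by 0. The more positive fold change was met by 7 of 22 reported Bach2-repressed genes, 4 of 16 effector transcription factors and 3 of 16 integrin chains. None in these 3 lists had the more negative one. Genes within a list are not independent of each other and lists share members, so the counts are a description.

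**Figure D3:**
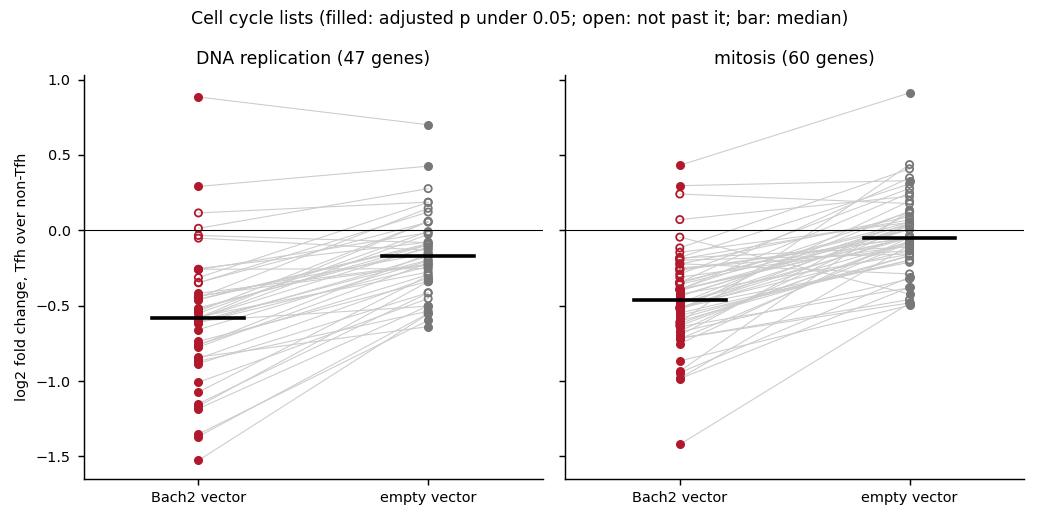
Log2 fold changes of Tfh over non-Tfh cells (y axis) for 47 DNA replication and 60 mitosis genes with the Bach2 vector and the empty vector (x axis). Lines join the values of a gene, filled points passed an adjusted p of 0.05, and black bars are medians. The medians are -0.58 with the Bach2 vector and -0.17 with the empty vector for replication, and -0.46 and -0.05 for mitosis.

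**Figure D4:**
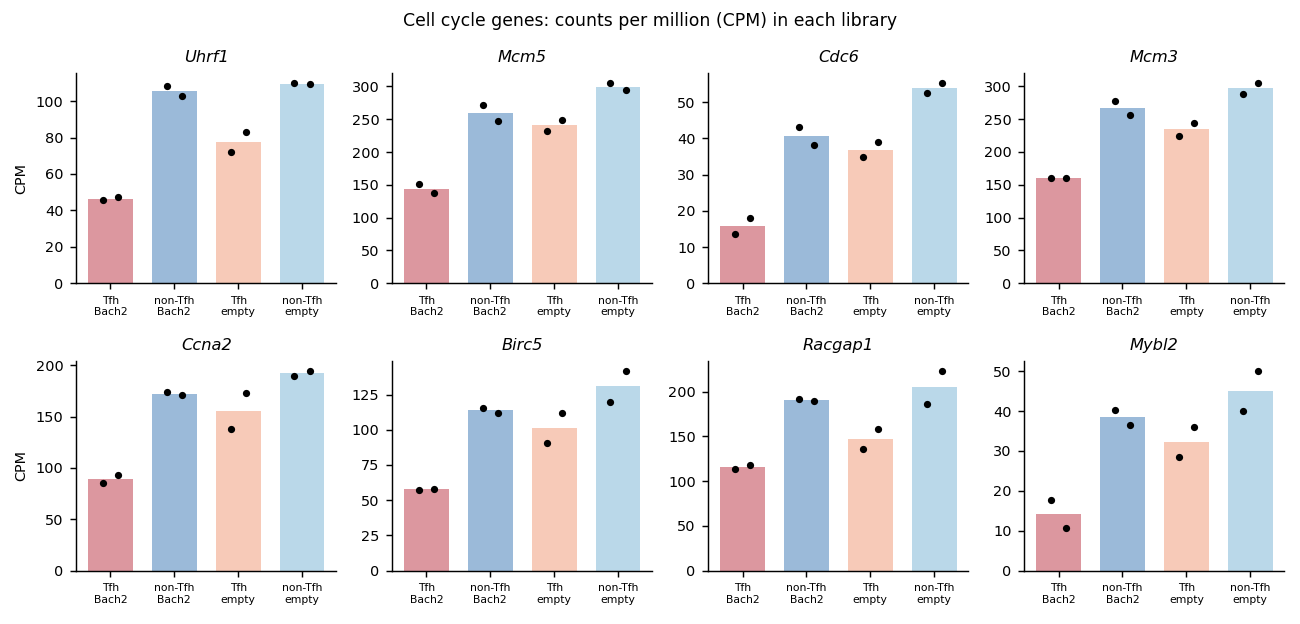
CPM (y axis, from 0) of 8 cell cycle genes in Tfh and non-Tfh cells with the Bach2 vector and the empty vector (x axis). Points are libraries and bars the mean of 2. For Uhrf1 the Bach2-vector Tfh libraries sit at 45.7 and 47.4, against 108 and 103 in Bach2-vector non-Tfh cells.

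Few cell cycle inhibitors were called higher in Tfh cells. Of 14 tested, 1 was higher and 6 were lower, with a median of -0.15. Over all tested genes 11.6% were higher and 12.7% lower, so 1 higher call in so short a list does not set it apart. The number called lower fell without replicate 2 of the non-Tfh group, so these counts are a description. Cdkn2c (p18) had 81.1 and 74.9 CPM in Tfh cells, against 36.5 and 41.2 CPM in non-Tfh cells (log2 fold change 1.01 ± 0.16, adjusted p = 5.96e-04), and Cdkn1a (p21) had 10.4 and 7.97 CPM in Tfh cells, against 21.4 and 20.4 CPM in non-Tfh cells (log2 fold change -1.18 ± 0.17, adjusted p = 1.56e-04). Btg3 was lower by a log2 fold change of -1.29, with an adjusted p of 0.0525 without replicate 2 of the non-Tfh group.

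Metabolic lists varied in their share of calls, against 24.4% over all tested genes. Of 23 glycolysis genes, 3 were higher and 6 lower (39.1% called), with a median of 0.06. The glucose transporter Slc2a3 had 43.4 and 51.9 CPM in Tfh cells, against 93.97 and 122 CPM in non-Tfh cells (log2 fold change -1.18 ± 0.13, adjusted p = 2.59e-05) and Eno1 had 665 and 649 CPM in Tfh cells, against 1186 and 1147 CPM in non-Tfh cells (log2 fold change -0.83 ± 0.08, adjusted p = 6.89e-06). Aldoc (2.34) and Pfkp (0.84) were higher. Of 28 genes of cholesterol and fatty acid synthesis, 7 were lower and 2 higher (32.1% called), with a median of -0.14. Idi1, which makes isoprenoid precursors, had 16.8 and 18.6 CPM in Tfh cells, against 49.4 and 46.7 CPM in non-Tfh cells (log2 fold change -1.44 ± 0.13, adjusted p = 2.90e-06). Leaving out 1 library gave 1 to 3 higher genes. Of 49 oxidative phosphorylation genes, 4 (8.16%) were lower and none higher, a share below that of all genes, and without replicate 2 of the Tfh group or replicate 1 of the non-Tfh group 1 was lower. Of 25 genes of protein folding in the endoplasmic reticulum, 7 were lower and 1 higher (32.0% called). The chaperone Hsp90b1 had 312 and 334 CPM in Tfh cells, against 602 and 605 CPM in non-Tfh cells (log2 fold change -0.90 ± 0.10, adjusted p = 2.62e-05) and Calr was lower by a log2 fold change of -0.59. The higher gene, Atf6 (0.45), was not called without replicate 1 of the non-Tfh group.

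Interferon-stimulated genes were lower in 13 of 42 cases and higher in 2, with a median of -0.22. That is 35.7% called, against 24.4% over all tested genes. By adjusted p the first of the lower genes was Gbp7, a guanylate-binding protein, which had 73.8 and 65.2 CPM in Tfh cells, against 159.7 and 168 CPM in non-Tfh cells (log2 fold change -1.24 ± 0.11, adjusted p = 3.43e-06), and Gbp2 was lower by a log2 fold change of -0.87. Without replicate 1 of the non-Tfh group 7 were lower, and no member was called higher in 5 of the 8 fits that left out a library. Bst2 (-0.77) and Ifit2 (-0.67) were lower.

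Genes of naive and memory T cells went in both directions, with 9 of 25 higher, 11 lower and a median of 0.07. Beside Tcf7, Lef1, Slamf6 and Cd27 on the higher side, Dapl1 had 2.82 and 3.87 CPM in Tfh cells, against 38.9 and 29.3 CPM in non-Tfh cells (log2 fold change -3.35 ± 0.26, adjusted p = 9.24e-07), and Tdrp (-1.82) and Pik3ip1 (-0.73) were lower. Without replicate 2 of the non-Tfh group 7 were lower. Il7r, the IL-7 receptor of resting cells, had 22.6 and 40.1 CPM in Tfh cells, against 228 and 312 CPM in non-Tfh cells (log2 fold change -3.12 ± 0.31, adjusted p = 8.92e-04) and was named after its values were seen.

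Some smaller families were counted as well. Among 10 purinergic genes, 3 were higher and 3 lower. P2rx7, an ATP-gated channel, had 438 and 398 CPM in Tfh cells, against 51.7 and 47.99 CPM in non-Tfh cells (log2 fold change 3.07 ± 0.12, adjusted p = 4.26e-09), and Nt5e (CD73), which makes adenosine, had 252 and 169 CPM in Tfh cells, against 55.3 and 34.1 CPM in non-Tfh cells (log2 fold change 2.24 ± 0.29, adjusted p = 0.00243). Entpd1 (CD39), which degrades ATP, had 3.69 and 5.44 CPM in Tfh cells, against 36.6 and 46.1 CPM in non-Tfh cells (log2 fold change -3.19 ± 0.27, adjusted p = 3.33e-06), so the pair of ectoenzymes stood on opposite sides. Of 8 regulators of G protein signalling, Rgs10 (1.36) and Rgs16 (1.94) were higher and Rgs1 (-1.13) and Rgs19 (-0.33) lower, with 1 lower call without either non-Tfh library or without replicate 1 of the Tfh group. Among 14 S100 proteins and annexins, 5 were lower and 1 higher, with a median of -0.23. Anxa6 had 457 and 507 CPM in Tfh cells, against 1689 and 1684 CPM in non-Tfh cells (log2 fold change -1.81 ± 0.10, adjusted p = 3.89e-08), and S100a11 had 450.5 and 404 CPM in Tfh cells, against 177 and 192 CPM in non-Tfh cells (log2 fold change 1.21 ± 0.10, adjusted p = 1.44e-06). Of 8 GIMAP GTPases, Gimap3 (0.34) was higher and Gimap7 (-0.54) lower, a share of 25.0% against 24.4% over all tested genes, and Gimap3 lost its call without replicate 1 of the non-Tfh group or replicate 2 of the Tfh group.

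Genes that regulate apoptosis were more often lower than higher. Of 19 apoptosis regulators, 8 were lower and 3 higher, with a median of -0.16. The death receptor Fas had 128 and 121 CPM in Tfh cells, against 41.4 and 37.9 CPM in non-Tfh cells (log2 fold change 1.65 ± 0.10, adjusted p = 7.88e-08). Bcl2l1 (BCL-XL), which protects cells, had 30.6 and 26.3 CPM in Tfh cells, against 59.8 and 60.1 CPM in non-Tfh cells (log2 fold change -1.07 ± 0.12, adjusted p = 2.69e-05), while the death-promoting Pmaip1 (NOXA) was lower by a log2 fold change of -1.51 and Bcl2l11 (BIM) by one of -0.80. Genes of both actions were thus among the lower ones. Of 20 genes that restrain PI3K or belong to TGF-beta signalling, 3 were lower and 1 higher, a smaller share than the 24.4% over all tested genes. Smad7, an inhibitor of TGF-beta signalling, had 9.55 and 13.1 CPM in Tfh cells, against 57.7 and 69.8 CPM in non-Tfh cells (log2 fold change -2.50 ± 0.18, adjusted p = 3.50e-07).

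Lists of other helper lineages were short. Of 8 tested Th17 genes, 3 were lower and 1 higher, and without replicate 2 of the Tfh group or replicate 1 of the non-Tfh group 1 was lower. Il1r1 had 83.4 and 81.8 CPM in Tfh cells, against 12.2 and 5.45 CPM in non-Tfh cells (log2 fold change 3.23 ± 0.43, adjusted p = 0.00311), and a fold change of 3.92 without replicate 1 of the non-Tfh group. Gata3, the factor of Th2 cells, had 118 and 101 CPM in Tfh cells, against 196 and 209.5 CPM in non-Tfh cells (log2 fold change -0.89 ± 0.10, adjusted p = 2.21e-05), with 3 of 5 Th2 genes lower and none higher. Of 9 genes of regulatory T cells, 3 were higher and 5 lower. Foxp3 had 0 and 0.725 CPM in Tfh cells, against 2.29 and 3.39 CPM in non-Tfh cells (adjusted p = 0.101), and rests on few reads. It passed without either empty-vector non-Tfh library (adjusted p = 0.0367 and 0.0374), with only the 4 Bach2-vector libraries (0.0229), with no filter on low counts (0.000293) and under the replicate block (0.00726), and did not pass in DESeq2 (0.350).

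**Figure D5:**
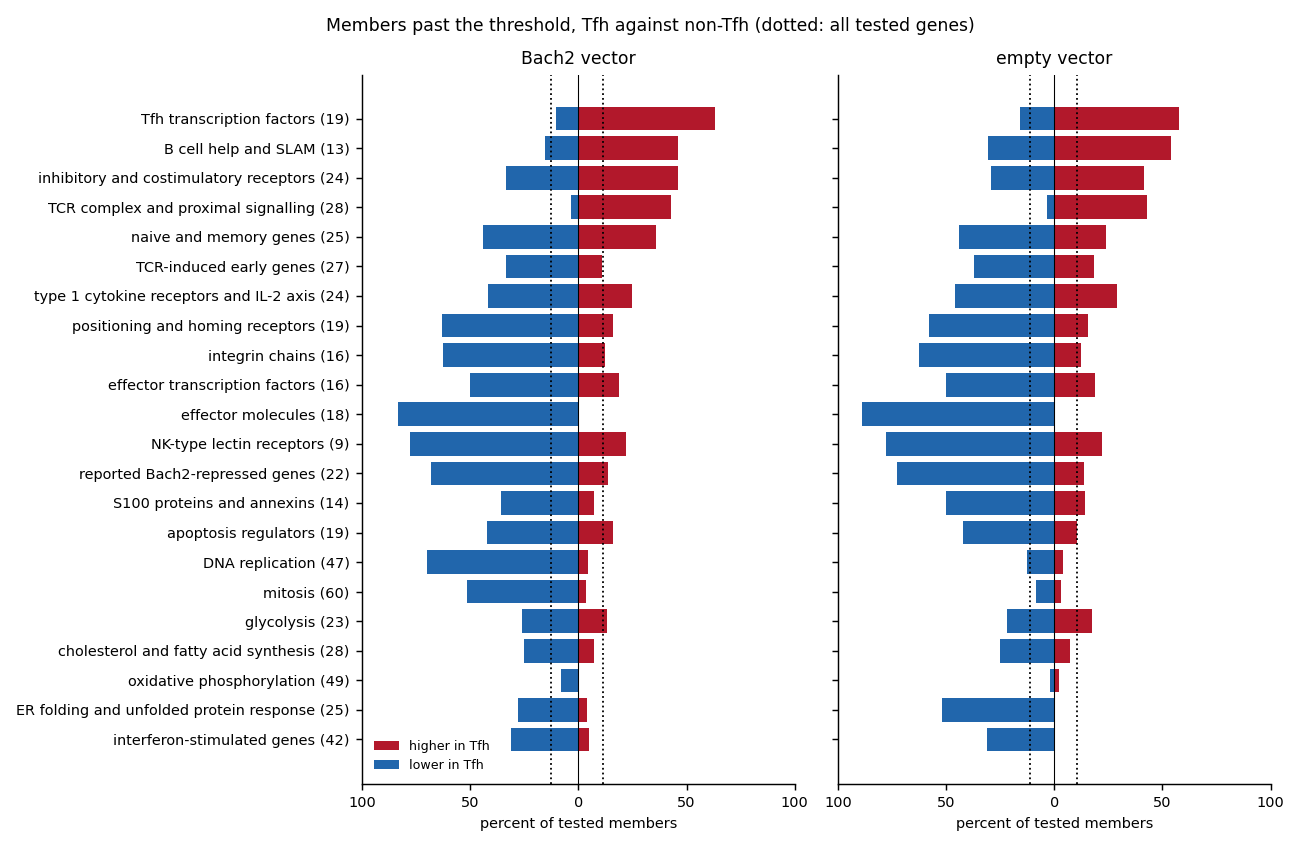
Percent of tested members of 22 gene lists (rows, number tested in brackets) called higher (red, right) or lower (blue, left) in Tfh cells against non-Tfh cells, for the Bach2 vector and the empty vector. Dotted lines are the shares over all tested genes, 11.6% higher and 12.7% lower with the Bach2 vector. Effector molecules reach 15 of 18 lower with the Bach2 vector, and the replication and mitosis bars differ most in length between the panels. The row of NK-type lectin receptors includes Cd160, which is not a lectin.

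Set beside the empty vector, most of the difference between Tfh and non-Tfh cells was present with both. With the empty vector 2515 genes (21.9%) were called, 1213 (10.6%) higher and 1302 (11.3%) lower. Without replicate 1 of the empty-vector Tfh group 685 and 729 were called, without replicate 1 of the empty-vector non-Tfh group 807 and 840, and without its replicate 2 621 and 720. In 1864 genes the call and its direction were shared, which is 66.7% of the Bach2-vector calls and 74.1% of the empty-vector calls, and no gene was called in opposite directions. A further 932 genes were called with the Bach2 vector alone and 651 with the empty vector alone, but a call in 1 comparison only does not show that the fold changes differ. The test of that difference passed for 0 of 11475 genes in edgeR. At an unadjusted p below 0.05 it had 539 genes (4.70%), and DESeq2 called 6.

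The lowest p in that test belonged to Tigit. With the empty vector Tigit had 404 and 351 CPM in Tfh cells, against 72.8 and 55.3 CPM in non-Tfh cells (log2 fold change 2.56 ± 0.12, adjusted p = 2.46e-08), which put the Bach2-vector fold change above it (difference 1.27 ± 0.19 on the log2 scale, adjusted p = 0.131), and both Bach2-vector groups lay below their empty-vector counterparts. Lag3 had 76.5 and 85.3 CPM in Tfh cells, against 42.5 and 53.98 CPM in non-Tfh cells with the empty vector (log2 fold change 0.74 ± 0.13, adjusted p = 7.42e-04), with a difference between vectors of the same sign (difference 1.08 ± 0.18 on the log2 scale, adjusted p = 0.141). Neither difference passed the threshold in the fit over all 8 libraries. For Tigit, DESeq2 gave an adjusted p of 1.01e-05, the fit with the replicate number as a block 0.00333, and the fit without replicate 2 of the empty-vector non-Tfh group 0.0119. Effector molecules had medians of -2.54 with the Bach2 vector and -2.59 with the empty vector, and Tfh factors 0.83 and 0.58. Among listed genes that did not pass the filter on low counts, and so have no test, were Ccr9, Itga5, S100a8, S100a9, Il17a, Ccl20, Il5, Il13, Il24, Lrrc32, Spry2, Batf2, Fosl1, Adora2b, Rgs11, Rgs18, Cdkn1c, Cdkn2a and Cdkn2b.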

How the data were processed

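Counts of paired reads per Ensembl gene were deposited for 8 libraries. Per the labels' protocols, RNA came from a micro-scale column kit, cDNA from Smart-Seq v4 and libraries from Nextera XT, read on a NextSeq500. This chemistry does not mark strand, so overlapping genes on opposite strands share reads that the counts cannot separate. Per the submitters' processing notes, TopHat2, Bowtie2 and featureCounts were used with GRCm38/mm10. Their versions, and what was done with multimapping reads, are not given. Symbols and positions come from GENCODE M21, which matched 37693 of 39179 IDs. The rest held at most 0.205% of a library's counts and stayed in the fit.

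Groups and genes were handled as follows. filterByExpr (minimum count 10, minimum total 15) kept 11475 genes. Counts of all 8 libraries were fitted in edgeR 4.0.16 (R 4.3.3) with 1 coefficient per group, TMM factors of 0.985 to 1.01 and 4 residual degrees of freedom. The robust quasi-likelihood test with Benjamini-Hochberg adjustment used a threshold of 0.05. The biological coefficient of variation was 9.89%. A floor of 3 counts equals 0.301 to 0.380 CPM per library. With 2 libraries against 2, an exact permutation test has a smallest two-sided p of 0.333, so no gene was tested outside this model. The model was also run on counts simulated with the same dispersion for every gene, a simpler setting than these data. DESeq2 1.42.0, other scalings, filters, fold thresholds, a replicate block and leaving out each library were alternatives.

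The genes named first are the 15 highest and 15 lowest fold changes among protein-coding genes past the threshold with at least 10 CPM on average in the higher group and no overlap of libraries. Gate genes and Bach2 were left out. From each list up to 4 members past the threshold in each direction were then named by lowest adjusted p, with a core panel and members that missed. Members and lists were chosen with earlier results of these data known. Some genes that these rules would name are not reported here.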

Additional observations from a re-analysis of the deposited data

How the results depend on the processing

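Counts depended on the fold tested and on single libraries. With the Bach2 vector, tests against a 1.5-fold and a 2-fold change called 344 and 164 genes higher and 424 and 224 lower. With the empty vector they called 302 and 138 higher and 400 and 214 lower. Leaving out 1 library gave 884 to 1284 higher and 1038 to 1451 lower genes with the Bach2 vector, and 621 to 1312 higher and 720 to 1395 lower with the empty vector. The cause was not tested, beyond the smaller number of libraries. DESeq2 called 2419 genes with the Bach2 vector, of which 2383 were also called in edgeR. RLE and upper-quartile scaling, both filters and the fit of the 4 Bach2-vector libraries alone kept both counts of that comparison within 1.5 times. No named gene that passed the threshold turned direction. Batf, Egr3, Eomes, Fosb, Il2, Jun, Junb, Jund and S1pr1, none of which passed, changed sign in some fits that left out 1 library, S1pr1 between -0.15 and 0.29.

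The difference between vectors gave 0 calls in either direction in the edgeR fit. DESeq2 gave 5 genes with a more positive fold change with the Bach2 vector and 1 with a more negative one. With no filter on low counts these were 22 and 15. The cause was not tested.

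Replicate numbers are shared by all groups, but the labels do not say that they pair samples. Deviations of same-numbered libraries correlated at r = 0.240 between the 2 Bach2-vector groups, and at -0.00413 to 0.208 in the other pairs of groups. With the number as a replicate block 1479 genes were higher and 1640 lower with the Bach2 vector, 1393 and 1455 with the empty vector, and 3 and 0 in the difference between vectors. Of the named genes that had missed the threshold, Klf2 (adjusted p = 0.01), Fos (5.54e-06), Cd40lg (0.0315) and Foxp3 (0.00726) passed under the block.

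Depth limits the genes near 0, such as Il4, Ascl2 and Klrg1, whose fitted fold changes depend on the prior count.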
